A study of Mus musculus with 16 samples.

Results

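Lung lineage factors and surfactant genes were examined in a mouse lung tumour cell line, as 10 genes chosen by name for what they say of lung epithelial identity. They were the transcription factors Nkx2-1, Foxa1, Foxa2 and Sox9, the surfactant proteins Sftpc, Sftpb and Sftpd, the alveolar type 2 genes Lamp3 and Napsa, and the alveolar type 1 gene Hopx. All 10 were found among the 20622 genes of the total RNA tables, and each was kept however low its level. Foxa1 was the only member above 10 TPM (a level scaled by transcript length and by library). Sftpc and Sftpb had 0 counts in all 8 total RNA libraries and were not listed in any ribosome footprint library. None of the members that could be tested differed between the cell lines past the threshold when all replicates were used.

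KM cells were derived from lung tumours of 1 male mouse carrying Rosa26 LSL-MYC/LSL-MYC among its conditional alleles, which an adenovirus with Cre under the surfactant protein C (SPC) promoter had switched on. The promoter of Sftpc, itself a member, therefore chose the cells from which the tumours grew. KMNTC cells carried a non-targeting guide, and KM4A2cr cells carried a lentiviral CRISPR guide to the coding region of Eif4a2, an RNA helicase of translation initiation, and were a pool of clones in which the protein was not seen on a western blot. Both lines shared the KM genotype, the lentiviral vector and puromycin selection, and neither was treated with a drug. The study's methods describe picking and pooling clones for KM4A2cr and give no such step for KMNTC. Effects of the guide and of cloning therefore cannot be told apart. Cholera toxin and differential trypsinization were used to limit fibroblasts in the culture, and the study's methods also list SPC among the markers used to assess identity. Ribosome-protected fragments (RPFs), the stretches of mRNA that ribosomes shield from RNase, and cytoplasmic total RNA were taken from the same lysate of 4 independent cultures of each line.

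In the lung, NKX2-1 is the homeodomain factor that sets and keeps lung epithelial identity, and the forkhead factors FOXA1 and FOXA2 act with it on surfactant genes. SOX9 marks the distal tip progenitors of the embryonic lung. Alveolar type 2 cells make surfactant, store it in lamellar bodies and give rise to the flat alveolar type 1 cells that exchange gas.

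The 8 RPF libraries held 4512403 to 9621848 counts each and the 8 total RNA libraries 5350919 to 9312622. Libraries of the same replicate number deviated together, and the pair of replicate 4 stood apart from the others in both lines. For Eif4a2, the targeted gene, RPFs in replicate 4 reached 389 and 346 CPM (counts scaled to a common library size with the trimmed mean of M-values, TMM) in KMNTC and KM4A2cr, against 51.0 to 122 in the other replicates of both lines. Eif4a2 RPFs were lower in KM4A2cr in every pair, and KM4A2cr RNA still gave 183 to 467 CPM (RPF log2 fold change -0.49, SE 0.15, adjusted p = 0.0941, edgeR; total RNA -0.18, SE 0.13, adjusted p = 0.504, edgeR). Because replicate 4 stood apart, results that changed without it are given both ways.

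In total RNA the members fell into 1 well expressed gene and 9 scarce ones. Foxa1 averaged 66.6 ± 21.1 TPM in KMNTC and 51.4 ± 15.9 in KM4A2cr (SD, n = 4 each), and ranked 2394 of all genes by mean level. Lamp3 followed at 1.02 ± 0.553 and 0.983 ± 0.307 TPM, then Sox9 at 0.865 ± 0.259 and 0.743 ± 0.0838, and Foxa2 at 0.662 ± 0.259 and 0.70 ± 0.605. These 3 genes lay close together and their ranges over libraries overlapped in both lines, so that no order among them could be read.

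Sftpd came next, at 0.367 ± 0.0918 TPM in KMNTC and 0.30 ± 0.277 in KM4A2cr, and overlapped Foxa2. Napsa averaged 0.095 and 0.185 TPM and lay wholly below Sftpd in KMNTC, where 2 of the 4 libraries had no Napsa count. Both genes had at most 2 counts in a KMNTC library, too few to read an order between them. Hopx and Nkx2-1 averaged 0.0875 and 0.0725 TPM in KMNTC and had 0 counts in KM4A2cr. From Foxa1 to Lamp3 was the only step between neighbours where the ranges stayed apart in both lines. In a bulk lysate, fewer cells of a type and less RNA per cell cannot be told apart, so these levels do not say whether a scarce member was low in every cell or higher in a few.

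**Figure D1:**
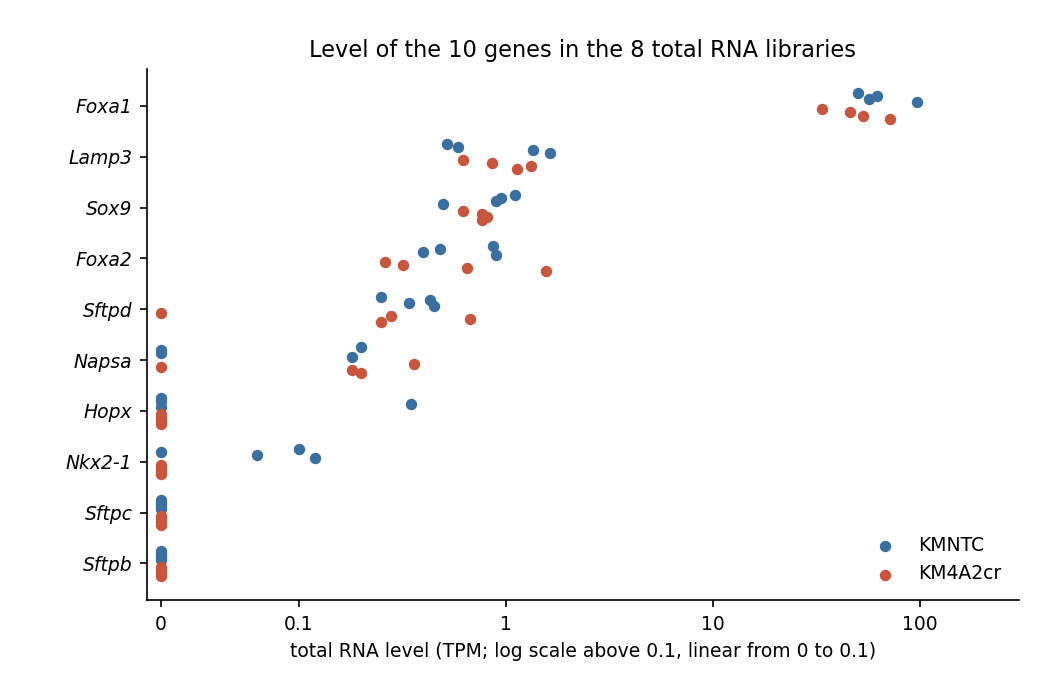
Total RNA level in TPM of each of the 10 genes (horizontal axis, log scale above 0.1 and linear from 0 to 0.1), with 1 point per library for 4 KMNTC and 4 KM4A2cr libraries. Foxa1 lies between 33.85 and 97.43 TPM, every other member lies at or below 1.63 TPM, and Sftpc and Sftpb sit at 0 in all 8 libraries.

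The surfactant proteins were at 0 or nearly so. Sftpc (ENSMUSG00000022097.5, chromosome 14), the hydrophobic surfactant protein whose promoter drove Cre in the tumours of origin, had 0 counts in all 8 total RNA libraries and no entry in any RPF table. A floor of 3 counts in a library of these depths corresponded to 0.91 to 1.48 TPM for this short transcript. This is the level that a count of 0 in a single library still allows. It does not pool the 8 libraries, all of which had 0. Sftpb (ENSMUSG00000056370.18, chromosome 6), the other hydrophobic surfactant protein and essential for breathing at birth, was likewise at 0 counts, with a floor of 0.427 to 0.695 TPM.

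Sftpd (ENSMUSG00000021795.11, chromosome 14), a secreted collectin of innate defence, gave 2, 2, 2 and 1 RNA counts in KMNTC replicates 1 to 4 and 1, 3, 1 and 0 in KM4A2cr. Its RPFs numbered 8, 5, 12 and 2 in KMNTC and 5, 3 and 6 in KM4A2cr replicates 1 to 3, and replicate 4 of KM4A2cr did not list it. The lines overlapped in both readouts, and every RNA count lay at or under the floor of 3.

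Of the genes of the lamellar body and its proteases, Lamp3 (ENSMUSG00000041247.9, chromosome 16), a membrane protein of lamellar bodies also made by dendritic cells, gave 21, 23, 8 and 6 RNA counts in KMNTC and 13, 17, 9 and 8 in KM4A2cr. Replicates 1 and 2 were the highest in both lines. Napsa (ENSMUSG00000002204.10, chromosome 7), the aspartic protease that helps to process surfactant protein B, gave 1, 0, 0 and 1 RNA counts in KMNTC and 1, 1, 0 and 2 in KM4A2cr. Napsa RPFs numbered 6, 2, 2 and 7 and then 6, 6, 2 and 3, so that ribosome footprints on Napsa were few but present in all 8 RPF libraries.

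Nkx2-1 (ENSMUSG00000001496.16, chromosome 12) gave 1, 1, 0 and 1 RNA counts in KMNTC and 0 in each KM4A2cr library, and no RPF table listed it. The floor of 3 counts was 0.272 to 0.442 TPM, and neither line rose above it, so no fold is given. Hopx (ENSMUSG00000059325.15, chromosome 5), a homeodomain-only protein of alveolar type 1 cells, gave 2 RNA counts in KMNTC replicate 2 and none elsewhere, and it too had no RPF entry. Both genes were therefore at or under the floor in every library.

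The forkhead genes differed in level within the family. Foxa1 (ENSMUSG00000035451.8, chromosome 12) gave 1188, 911, 800 and 550 RNA counts in KMNTC and 787, 653, 457 and 415 in KM4A2cr, with 453, 155, 173 and 82 RPFs and 266, 158, 137 and 86 RPFs. Foxa2 (ENSMUSG00000037025.12, chromosome 2) gave 7, 4, 4 and 6 RNA counts in KMNTC and 11, 5, 2 and 2 in KM4A2cr, and 32, 13, 20 and 5 RPFs against 10, 7, 3 and 7. Foxa2 RPFs thus came to between 2.19% and 11.6% of Foxa1 RPFs in a library, a comparison of counts that is not scaled for coding length. Foxa3, the third gene of the family, had no counts in any of the 16 libraries, with a missing RPF entry taken as 0.

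Sox9 (ENSMUSG00000000567.6, chromosome 11), a progenitor factor, gave 8, 19, 16 and 16 RNA counts in KMNTC and 11, 13, 10 and 10 in KM4A2cr. Its RPFs numbered 58, 60, 43 and 43 in KMNTC and 25, 48, 37 and 38 in KM4A2cr. Sox9 was the member with the most RPFs after Foxa1, and its counts overlapped between the lines in both readouts.

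Sequences just before the transcription start are shown for the highest member, Foxa1, and for Sftpb and Lamp3, whose levels contrast with it. They are also the only 3 of the 9 member promoters available that held a FOXA word, so they do not stand for the members at large. Each is the 250 bases before a RefSeq start in build GRCm38.p6, written 5′ to 3′ along the gene, with the matches of the words searched in capitals. The words were CTCAAG, the core that NKX2-1 binds, and TGTTTAC or TGTTTGC, cores bound by FOXA factors, on either strand. No match of one word overlapped a match of another. Among 32851 mouse promoters of this length, 13.3% held the NKX2-1 word, 7.29% a FOXA word and 0.928% both.
Foxa1, chr12:57546112-57546361, minus strand: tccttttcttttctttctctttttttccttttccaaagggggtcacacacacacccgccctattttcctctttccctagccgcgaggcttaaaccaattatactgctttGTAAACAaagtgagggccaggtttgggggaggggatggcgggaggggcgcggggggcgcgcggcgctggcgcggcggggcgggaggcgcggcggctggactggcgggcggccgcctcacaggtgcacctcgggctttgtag
Sftpb, chr6:72304360-72304609, plus strand: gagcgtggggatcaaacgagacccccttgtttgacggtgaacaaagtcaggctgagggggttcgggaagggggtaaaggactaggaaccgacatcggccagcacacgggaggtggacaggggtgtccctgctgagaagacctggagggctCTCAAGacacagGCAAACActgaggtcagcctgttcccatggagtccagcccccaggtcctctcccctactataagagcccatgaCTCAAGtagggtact
Lamp3, chr16:19706366-19706615, minus strand: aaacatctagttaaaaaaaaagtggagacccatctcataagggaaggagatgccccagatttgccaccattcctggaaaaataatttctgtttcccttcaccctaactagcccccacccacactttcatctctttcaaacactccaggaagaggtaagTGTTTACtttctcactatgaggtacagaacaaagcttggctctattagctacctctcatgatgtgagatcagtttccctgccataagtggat
Sftpb held 2 NKX2-1 words, at -100 to -95 and -15 to -10 from its start, with 1 FOXA word between them at -88 to -82. Foxa1 held 1 FOXA word at -141 to -135, and Lamp3 held 1 at -92 to -86. The RefSeq span of Foxa1 reaches further upstream than this start. The table gave 9 promoters for 6 of the 10 members. Of these, a promoter of Foxa2 and a promoter of Hopx each held 1 NKX2-1 word, and that of Nkx2-1 held neither word. A match is a description of letters and not evidence of binding in these cells.

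Of the 10 members, 3 passed the filter on low counts for RPFs (Foxa1, Foxa2 and Sox9), 3 for total RNA (Foxa1, Sox9 and Lamp3) and 2 for both (Foxa1 and Sox9). With replicates as a block, the quasi-likelihood test of edgeR called 0 of 3 members in RPFs at an adjusted p under 0.1, where it called 10.3% of all 10291 genes tested (6.6% higher and 3.72% lower in KM4A2cr). It called 0 of 3 members in total RNA, against 6.13% of 10880 genes (4.35% higher and 1.78% lower). For translational efficiency, that is RPFs relative to RNA, it called 0 of 2, against 2.91% of 9989 genes (1.87% higher and 1.04% lower). In each of these, 0 members had an unadjusted p under 0.05 in edgeR, and DESeq2 called 0 members in RPFs and 0 in total RNA.

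Foxa1 RNA came to 167, 81.9, 108 and 105 CPM in KMNTC replicates 1 to 4 and to 129, 83.1, 86.5 and 95.7 in KM4A2cr. It was lower in KM4A2cr in 3 of 4 pairs, but the lines overlapped and replicate 1 was the highest in both (log2 fold change -0.20, SE 0.12, 95% interval -0.48 to 0.07, adjusted p = 0.431, edgeR). Foxa1 RPFs came to 41.0, 15.4, 23.7 and 17.2 CPM in KMNTC and 32.1, 19.4, 19.2 and 23.2 in KM4A2cr. They were higher in KM4A2cr in 2 of 4 pairs and lower in the other 2, with a log2 fold change of 0.00 (SE 0.17, 95% interval -0.37 to 0.38, adjusted p = 0.999, edgeR), which turned to -0.13 when libraries were scaled by their size alone.

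The ratio of Foxa1 RPF to RNA CPM was 0.246, 0.188, 0.219 and 0.164 in KMNTC and 0.249, 0.233, 0.222 and 0.242 in KM4A2cr. KM4A2cr was higher in every pair, hardly so in replicates 1 and 3 and more in replicates 2 and 4. The group means were 0.204 ± 0.0358 and 0.236 ± 0.0117 (SD, n = 4 each), and the change in translational efficiency did not pass the threshold (log2 0.19, SE 0.12, 95% interval -0.06 to 0.44, adjusted p = 0.512, edgeR).

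**Figure D2:**
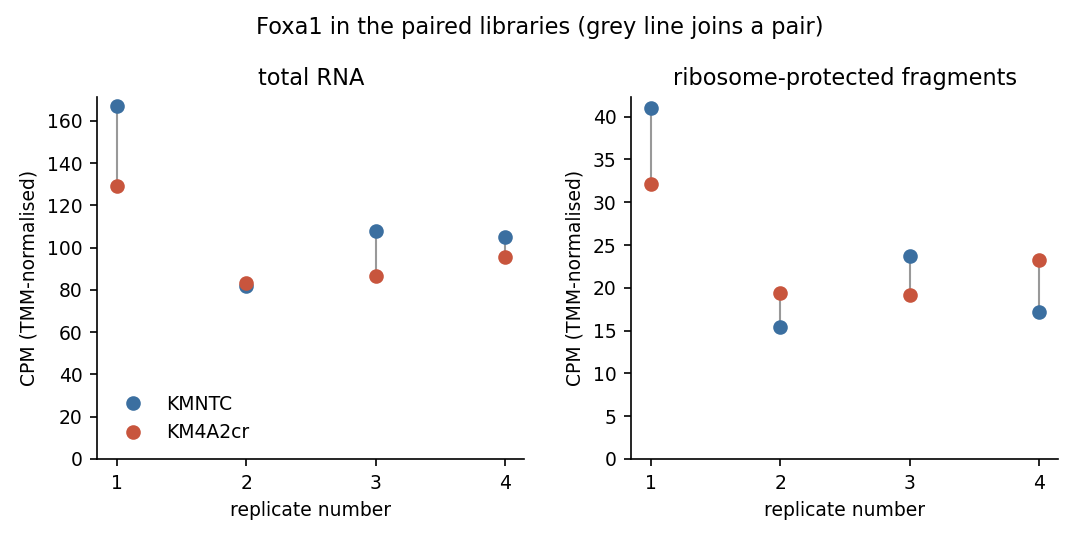
Foxa1 in TMM-normalised CPM (vertical axes, from 0) by replicate number, in total RNA and in RPFs, with a grey line joining the KMNTC and KM4A2cr libraries of a pair. Replicate 1 is the highest in both lines, at 167 and 129 CPM of RNA, and the pairs run in both directions in RPFs.

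Foxa2 was tested in RPFs only, at 2.90, 1.29, 2.74 and 1.05 CPM in KMNTC and 1.21, 0.861, 0.421 and 1.88 in KM4A2cr. KM4A2cr was lower in replicates 1, 2 and 3 and higher in replicate 4. The log2 fold change of -1.02 (SE 0.46, 95% interval -2.06 to 0.02) missed the threshold (adjusted p = 0.222, edgeR; -0.94, adjusted p = 0.461, DESeq2). Without replicate 4 it was -1.40 and passed (adjusted p = 0.0221, edgeR), and without replicate 3 it was -0.54 (adjusted p = 0.65, edgeR), with adjusted p between 0.0221 and 0.998 over all alternatives. The change thus rested on 70 RPFs in KMNTC and 27 in KM4A2cr.

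Foxa2 lies on chromosome 2, whose 833 genes tested in RPFs had a median log2 fold change of -0.21, against -0.01 for all genes tested. Of these, 85 (10.2%) were called lower in KM4A2cr, against 3.72% of all genes, and in total RNA 48 of 900 (5.33%) were, with a median of -0.17, against 1.78% of all genes. No other chromosome was summarised, so how usual such a shift is was not shown. The part of the chromosome 2 shift in the Foxa2 value was not tested. Foxa2 RNA, too scarce to test, overlapped fully between the lines.

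Sox9 RPFs came to 5.25, 5.96, 5.89 and 9.02 CPM in KMNTC and 3.02, 5.90, 5.19 and 10.2 in KM4A2cr, and its RNA to 1.12, 1.71, 2.16 and 3.07 CPM and 1.80, 1.65, 1.89 and 2.3 CPM. RPFs were lower in KM4A2cr in 3 of 4 pairs, with replicate 4 the exception (log2 fold change -0.19, SE 0.21, 95% interval -0.65 to 0.28, adjusted p = 0.623, edgeR). RNA did not pass either (-0.03, SE 0.30, 95% interval -0.68 to 0.63, adjusted p = 0.977, edgeR), nor did translational efficiency (-0.13, SE 0.36, 95% interval -0.87 to 0.61, adjusted p = 0.911, edgeR).

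Lamp3 RNA came to 2.95, 2.07, 1.08 and 1.15 CPM in KMNTC and 2.13, 2.16, 1.70 and 1.84 in KM4A2cr. It was higher in KM4A2cr in 3 of 4 pairs, and its log2 fold change of 0.11 (SE 0.31, 95% interval -0.57 to 0.78, adjusted p = 0.896, edgeR) turned to -0.04 with library size alone. The intervals of Sox9 and Lamp3 RNA reached beyond 0.5 in both directions on the log2 scale, so changes of that size in either direction were not excluded. For Foxa1 RNA the interval reached no further than -0.48 and 0.07.

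**Figure D3:**
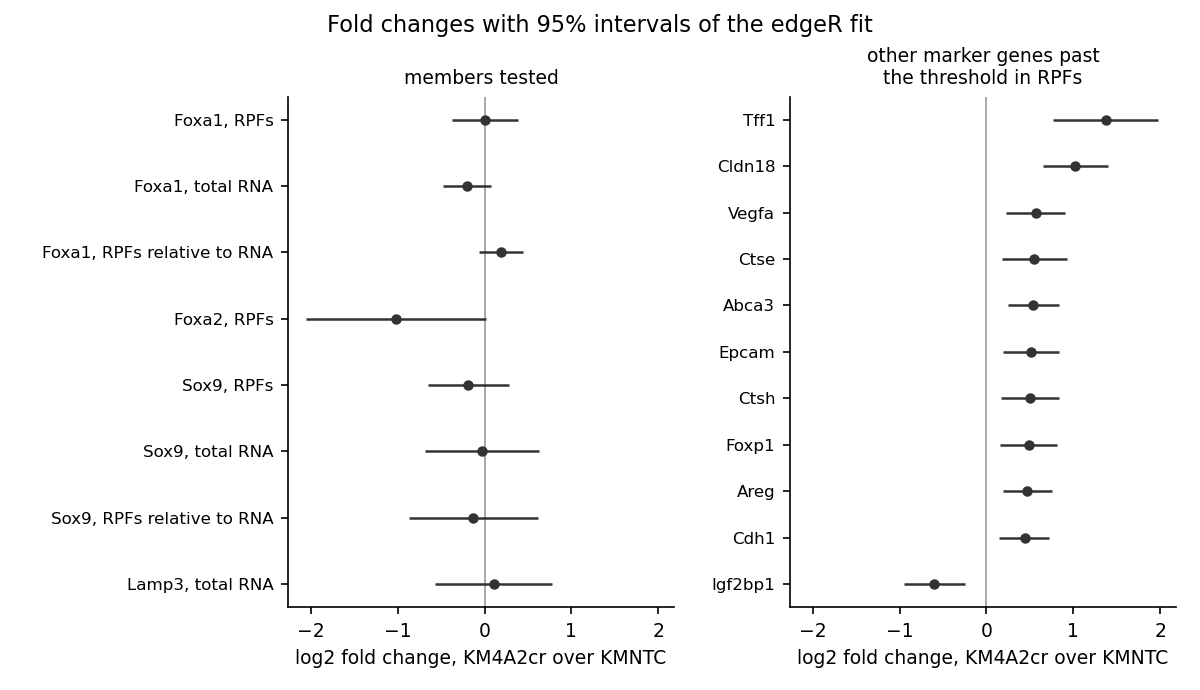
Log2 fold change of KM4A2cr over KMNTC (horizontal axes) with 95% intervals from the edgeR fit, on the left for the tested members by readout and on the right for the 11 genes of the other marker lists past the threshold in RPFs. Every member interval spans 0, and that of Foxa2 RPFs, from -2.06 to 0.02, is the widest.

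RPF counts of 4 scarce members were high beside those of other genes with as little RNA. Foxa2, with 41 RNA counts over 8 libraries, gave 97 RPFs, where 512 genes within 25% of that RNA count had a median of 17 RPFs and 90.0% of them had fewer. Sox9, with 103 RNA counts, gave 352 RPFs against a median of 68, and 94.2% of such genes had fewer. Sftpd and Napsa, with 12 and 6 RNA counts, gave 41 and 34 RPFs against medians of 3 and 1. Of such genes, 94.7% and 97.9% had fewer. Genes without an RPF entry were taken as 0 in these comparisons, which lowers the medians. They made up 20.5% of the genes set beside Sftpd and 34.0% of those beside Napsa. For Foxa2 and Sox9 they made up 4.1% and 2.73%. These counts are not scaled for coding length, and RNA counts this low carry wide counting error. With a missing entry taken as 0, each of the 4 genes thus had more RPFs than at least 90.0% of genes with a like RNA count.

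Lamp3 went the other way, with 105 RNA counts and no entry in any RPF table. Of 522 genes with a like RNA count, 14 (2.68%) had no RPF entry, and the median was 74 RPFs. By the study's methods, RPFs were aligned to a set with 1 transcript per gene, its most abundant, and Lamp3 had 1 isoform in the RNA tables. The RPF tables also list some transcripts at 0 counts, and what sets these apart from a missing entry is not given in the sources used here. Nkx2-1, Sftpc, Sftpb and Hopx, likewise without an RPF entry, had 3 or fewer RNA counts over 8 libraries.

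**Figure D4:**
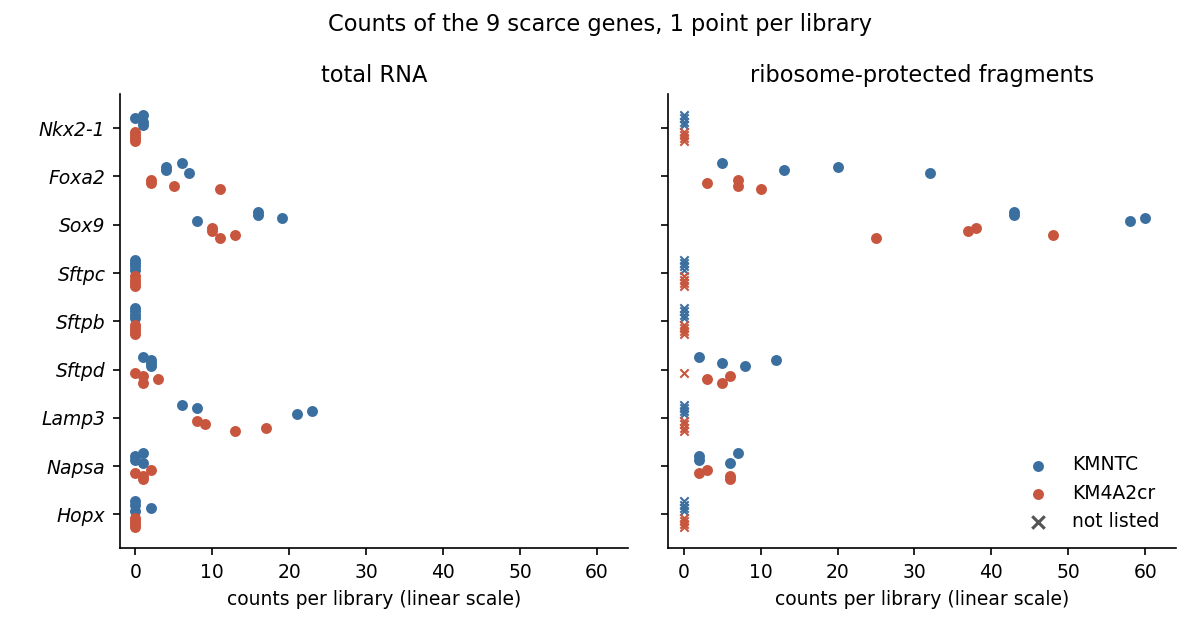
Counts per library (horizontal axes, linear) of the 9 members other than Foxa1, in total RNA and in RPFs, with 1 point per library and crosses where a library did not list the gene. Sox9 and Foxa2 reach 60 and 32 RPFs where their RNA stays at or below 19 and 11 counts, and Lamp3 reaches 23 RNA counts with no RPF entry.

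The other genes of these cell types were taken from 11 lists of 107 genes, chosen with earlier results of these data known. They set the level of the members beside that of their neighbours. Of 14 other alveolar type 2 genes, 7 averaged over 10 TPM, among them the protease Ctsh at 297 ± 70.8 TPM (SD, n = 8), the lipid-binding Fabp5 at 206 ± 79.6 and the lamellar body lipid transporter Abca3 at 36.9 ± 7.33. Of the 10 alveolar type 2 markers set down for the check of cell identity, members included, 3 averaged over 10 TPM, namely Abca3, the phospholipid enzyme Lpcat1 at 95.4 ± 33.8 and the factor Etv5 at 12.7 ± 4.99. The other 7 averaged at most 1.00 TPM, and they were Sftpc, Sftpb, Sftpd, Lamp3, Napsa, the surfactant protein Sftpa1 (0.0213 TPM) and the phosphate transporter Slc34a2 (0.015 TPM).

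Of 12 other alveolar type 1 genes, 5 averaged over 10 TPM, led by Vegfa at 389 ± 191 and the membrane protein Emp2 at 353 ± 77.4. A further 6 averaged under 1 TPM. Among the alveolar type 1 markers set down for the identity check, Aqp5 averaged 72.4 TPM, Cav1 54.8 and Rtkn2 1.71. Ager and Pdpn averaged only 0.13 and 0.106 TPM, and Hopx was at the floor. The list for the Krt8-positive transitional state includes Krt8, Krt18 and Krt19, also set down as general epithelial markers for the identity check. High levels of its genes therefore do not tell that state from epithelial cells in general. All 10 genes of the list exceeded 10 TPM, with Krt18 at 1300 ± 223 and the urokinase receptor Plaur at 586 ± 302. Of 13 airway genes, 0 did so, with keratin Krt14 the highest at 3.89 ± 1.90 TPM and the ciliary factor Foxj1 next at 0.264 ± 0.169. Of the 12 other lung epithelial transcription factors 7 did, led by Id2 at 96.9 ± 43.2 and Sox4 at 67.4 ± 27.0, and Foxa1, at 33.85 to 97.43 TPM, lay within the range of Sox4 (15.45 to 104.58).

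Among stomach and gut genes, the protease Ctse stood at 791 ± 240 TPM and the lectin Lgals4 next at 0.941 ± 0.628. Embryonic genes were led by the chromatin protein Hmga2 at 279 ± 160 and the RNA-binding Igf2bp2 at 66.8 ± 20.5. All 7 general epithelial markers exceeded 10 TPM, with the adhesion proteins Epcam and Cdh1 at 1790 ± 571 and 920 ± 161 TPM. The summed level of 8 fibroblast markers was 1.07 to 3.03 TPM in KMNTC and 1.38 to 2.85 in KM4A2cr, nearly all of it Pdgfra at 1.98 ± 0.70, with Thy1 at 0.015 and Col3a1, Dcn and Lum at 0. Leukocyte markers summed to 33.44 to 220.8 and 37.7 to 154.93 TPM, of which the lysosomal Cd68 gave 77.7 ± 70.4 on average and the pan-leukocyte Ptprc 0.288 ± 0.227. Endothelial markers summed to at most 2.13 TPM, with Kdr at 0.426 and Pecam1 at 0.32.

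**Figure D5:**
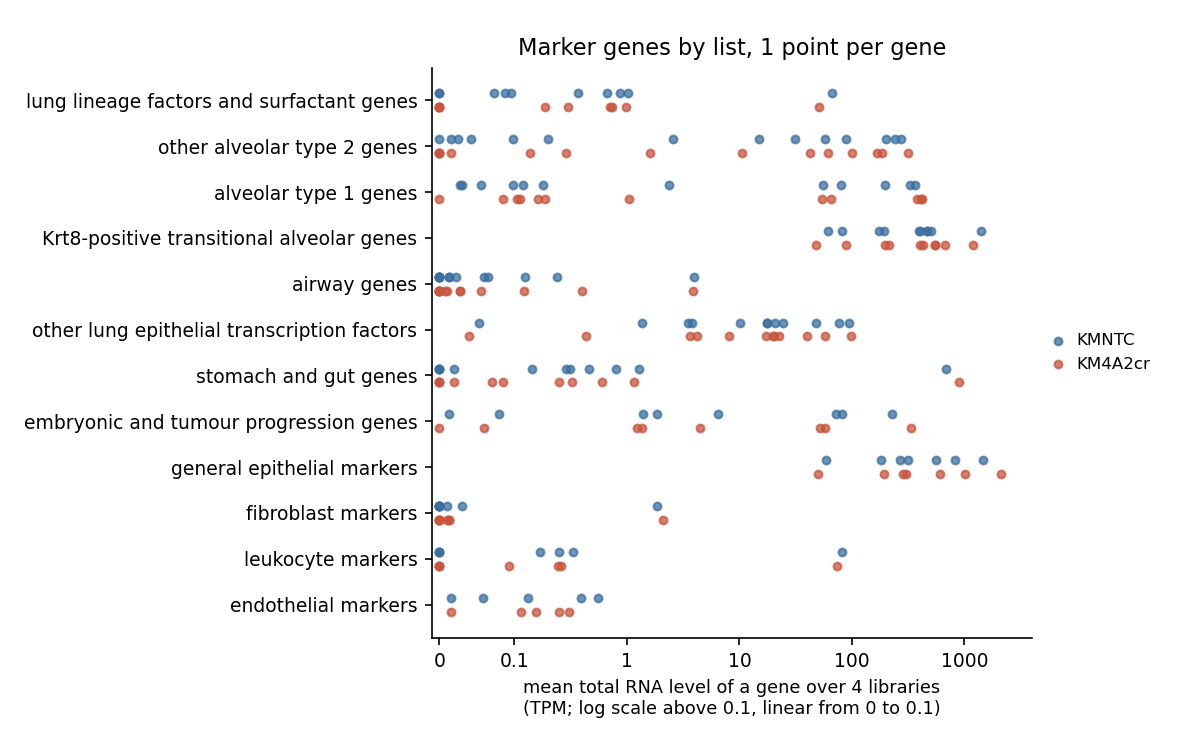
Mean total RNA level of each gene over 4 libraries in TPM (horizontal axis, log scale above 0.1 and linear from 0 to 0.1) by marker list and cell line, with 1 point per gene. The lung lineage and surfactant genes lie at or below 1.02 TPM except Foxa1, while all general epithelial and transitional genes lie above 10 TPM.

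In these other lists, 10 of 52 genes tested in RPFs rose in KM4A2cr and 1 fell (21.2%, against 10.3% of all genes tested). In total RNA 2 of 51 rose and 1 fell (5.88%, against 6.13%). The lists were chosen with earlier results of these data known, so these shares do not test for enrichment. Without replicates 2 or 3 in turn, 0 of the lists' genes passed in RPFs, against 23 without replicate 4, and total RNA gave 0 without replicate 3 and 26 without replicate 4. Cldn18, a tight junction protein of alveolar type 1 and stomach epithelium, rose in both readouts (RPF log2 fold change 1.02, SE 0.17, adjusted p = 0.0146; RNA 1.12, SE 0.17, adjusted p = 0.00838, edgeR). Abca3 rose in both (RPF 0.54, SE 0.13, adjusted p = 0.0501; RNA 0.62, SE 0.12, adjusted p = 0.024, edgeR), at 31.2 ± 3.59 TPM in KMNTC and 42.6 ± 5.12 in KM4A2cr (SD, n = 4 each).

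The other 8 rises in RPFs spanned 0.44 to 1.38 on the log2 scale. They were the trefoil peptide Tff1 at 1.38, the growth factors Vegfa at 0.57 and Areg at 0.47, the proteases Ctse at 0.55 and Ctsh at 0.50, the factor Foxp1 at 0.49, and Epcam and Cdh1 at 0.51 and 0.44, with adjusted p from 0.0258 to 0.0941 (edgeR). The RNA-binding Igf2bp1 fell by 0.60 in RPFs (adjusted p = 0.0649, edgeR). Igf2bp2 fell by 0.48 in RNA and rose by 0.51 in translational efficiency (adjusted p = 0.0872 and 0.0256, edgeR). The tested members gave no such call, with medians of -0.19 in RPFs and -0.03 in RNA over 3 genes each, against -0.01 and 0.01 over all genes tested.

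The genes whose total RNA ran most like each tested member were found as those with the smallest root mean square difference in centred log2 CPM over 8 libraries. For Foxa1 they were Zfp458, Dgkq and Pdrg1, at differences of 0.084, 0.099 and 0.109, against a median of 0.498 over all genes tested. For Sox9 they were Cchcr1, Cln6 and Gpd2 at 0.115, 0.132 and 0.133 (median 0.492), and for Lamp3 Map3k11, Wdr24 and Natd1 at 0.124, 0.151 and 0.164 (median 0.546). The 8 libraries share 4 replicate numbers, so a difference between replicates weighs on every such likeness.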

How the data were processed

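The authors deposited whole-number RPF counts per transcript, taken from the coding sequence with both ends trimmed, and RSEM expected counts and TPM per isoform for total RNA. Per the study's methods and the submitters' processing notes, reads were trimmed with Cutadapt 1.18, aligned with BBmap (RPFs, to the most abundant transcript of a gene) or Bowtie2 2.3.5.1 (RNA) to a filtered GENCODE vM27 transcriptome, collapsed by molecular identifier with UMI-tools 1.0.1, and quantified with RSEM 1.3.3 for RNA. A gene summed over unlike isoforms, or RPFs aligned to 1 isoform, can shift a level. Strand settings are not given in the sources used here.

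Expected counts and deposited TPM were summed per gene, and expected counts rounded. edgeR 4.0.16 in R 4.3.3 (filterByExpr, minimum count 10; TMM scaling; quasi-likelihood test; cell line and replicate as terms) was fitted on all genes, with Benjamini-Hochberg adjustment and a threshold of 0.1. The change in translational efficiency was the coefficient by which the RPF effect of the line exceeded its RNA effect over 16 libraries, with a term per lysate. The study gives 4 individual experiments, and the sample titles number the replicates. Deviations of same-numbered libraries correlated at 0.575 to 0.782 in RPFs and 0.611 to 0.756 in RNA, so the numbers were taken to pair the samples. DESeq2 1.42.0 (block kept), other scalings, filters, no block and each replicate left out were alternatives. In simulated data with 200 genes changed by 1 on the log2 scale, the RPF fit recovered 92.9% of them. Of its calls, 12.9% were unchanged genes. The RNA fit gave 93.9% and 11.9%, and the translational efficiency fit 68.9% and 19.1%. The changed genes were drawn from all filtered genes, with the same change in every replicate. These rates therefore do not apply to the scarce members, or where replicates differ in effect.

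Named genes were all members, the genes of each list that passed in RPFs or RNA and the 2 with the highest mean TPM in each list, the 3 genes most like each tested member, and Eif4a2. Foxa3 and the fibroblast genes named at 0 were chosen after their values were seen. The alveolar type 2 and type 1 markers named with the identity check are its whole lists for those cell types. The members and lists were chosen with earlier results of these data known. Floors of 3 counts concern counting error in a single library, and the 95% intervals cover counting and replicate error of these cultures. The cultures came from 1 cell line per genotype. Promoters are from RefSeq (GRCm38.p6), used for sequence only, since the files name another annotation. TPM levels were compared between genes because they are scaled by length.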

Additional observations from a re-analysis of the deposited data

Results flagged for a closer look

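Of 24 sets of 4 libraries with any spread among the members, 2 held a library far from the other 3. Chance gives such a gap in about 1 of 20 sets of normally distributed values. Counts near 0 are not such values, so that rate does not hold for most of these sets. A set with 3 libraries at 0 and 1 above 0 meets the rule at any level. Napsa RPFs in KM4A2cr spread from the lowest library, at 0.281 CPM, to the others well above it, and Hopx RNA in KMNTC reached 0.35 TPM in replicate 2 with 0 in the other 3 libraries. Both rest on 2 counts in the library that stood apart.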

How the results depend on the processing

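No member passed the threshold under any alternative except Foxa2 RPFs, which passed without replicate 4, so that members called in RPFs ranged from 0 to 1 over the fits with 1 replicate left out. Total RNA and translational efficiency gave 0 members in all alternatives run. Without the replicate block, Foxa2 was at -0.96 (adjusted p = 0.998, edgeR), and the calls of the other lists fell to 0 in RPFs, 0 in total RNA and 0 in translational efficiency, as did the calls over all genes in each.

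The list genes called in RPFs numbered 11, and 2 at an adjusted p of 0.05 in edgeR. With 1 replicate left out they ranged from 0 to 23. In total RNA they numbered 3, against 8 with DESeq2, 6 with library size alone, 11 with no filter (94 genes tested), 5 with a mean of at least 1 CPM, and 0 to 26 with 1 replicate left out. For translational efficiency they numbered 1, and 0 to 5 with 1 replicate left out. Over all genes, RPF calls numbered 1062, against 438 at an adjusted p of 0.05 in edgeR, 1619 with library size alone and 32 to 3469 with 1 replicate left out. Total RNA calls numbered 667, against 321 at 0.05, 1130 with library size alone, 1268 with no filter and 63 to 3260 with 1 replicate left out. Translational efficiency calls numbered 291, against 76 at 0.05, 132 with library size alone and 10 to 673 with 1 replicate left out. Library size alone put the median of all genes at -0.14 in RPFs (from -0.01) and -0.15 in RNA (from 0.01), and the share of calls higher in KM4A2cr at 29.8% (from 63.9%) and 23.2% (from 70.9%). Upper quartile scaling gave 53.5% and 60.1%, and for translational efficiency library size alone gave 78.8% against 64.3%.

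Directions turned for values near 0. Foxa1 RPFs, at 0.00, went to -0.05 without the replicate block, -0.13 with library size alone, -0.04 with the upper quartile, -0.01 with no filter, and -0.10 and -0.12 without replicates 2 and 4, within -0.12 to 0.14 over the fits with 1 replicate left out. Sox9 RNA went from -0.03 to 0.03 and 0.08 without replicates 3 and 4 (-0.21 to 0.08 over such fits), and Sox9 translational efficiency from -0.13 to 0.20 without replicate 1 (-0.36 to 0.20). Lamp3 RNA went from 0.11 to -0.04 with library size alone and to -0.01 and -0.02 without replicates 3 and 4 (-0.02 to 0.36), and it failed the filter without replicate 2. Foxa1 RNA and efficiency, Foxa2 RPFs and Sox9 RPFs kept their direction in all alternatives run. The cause of these changes was not tested. The 7 members that failed the filter in RPFs and the 7 that failed it in RNA have no test there, and their counts limit what could be seen.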
